A study of Mus musculus with 8 samples.

Results

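Genes that write, erase and read DNA methylation were followed in the hippocampus of mice given anti-CD4, an antibody to a co-receptor found on helper T cells. The 9 genes were Dnmt1, Dnmt3a and Dnmt3b (writers), Tet1, Tet2 and Tet3 (erasers) and Mbd1, Mbd2 and Uhrf2 (readers), matched by the gene name that the array files give. They are 9 of the 34821 gene names on the array and are read by 20 of its 55681 probes. Testing required a call of well above background by the scanner software in 4 or more of the 8 arrays, which 19 of the 20 probes met, among 29406 in all. The anti-CD4 group and the control antibody group held 4 samples each. All were hippocampi of female C57BL6/J mice, 8 weeks old, that lived for 4 weeks in an enriched environment, a form of housing with added space and objects that both groups shared. Total RNA was hybridised to one-colour Agilent arrays labelled with Cy3. The labels do not state whether each sample was a separate animal, and the p-values therefore reflect only sample-to-sample spread, part or all of which could be technical. The depletion of CD4 cells was not measured on these arrays.

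Cytosine methylation at CpG dinucleotides is copied after replication by DNMT1 and laid down on unmethylated DNA by DNMT3A and DNMT3B. The TET dioxygenases oxidise 5-methylcytosine to 5-hydroxymethylcytosine and further products, which base excision repair or replication then replaces with cytosine. MBD1 and MBD2 bind methylated CpG and recruit repressor complexes, and UHRF2 binds 5-hydroxymethylcytosine. Neurons of the adult brain carry much 5-hydroxymethylcytosine and keep DNMT3A after they stop dividing, which is why these enzymes have been studied in learning.

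Values below are log2 processed signals relative to the 75th percentile of the array, differences are anti-CD4 minus control on that log2 scale, and probes of a gene are lettered in order along its transcript. Brightness depends on the probe as well as on the RNA, so no probe's level is set against another's. No member probe passed the adjusted threshold of 0.05 in limma, where 0 of all 29406 probes did (0%), and the smallest adjusted p over all probes was 0.148. At an unadjusted p under 0.05 the members held 2 probes, both lower in the anti-CD4 group, Mbd2 a and Tet3 a. Over all tested probes 3813 met the same criterion (13.0%), 2055 of them lower (6.99%) and 1758 higher (5.98%), so 2 of 19 is close to the share among all probes. The groups did not overlap for 1 member probe, Mbd2 a, against 8.21% of all probes in either direction, 4.43% on the lower side and 3.77% on the higher side. Of the 19 differences 15 lay below 0, against 48.9% of all probes. The median of the members was -0.10, with quartiles of -0.14 and -0.02, and that of all tested probes 0.0046. Probes of one gene and genes of one tissue share the same arrays, so these 19 values are not independent.

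**Figure D1:**
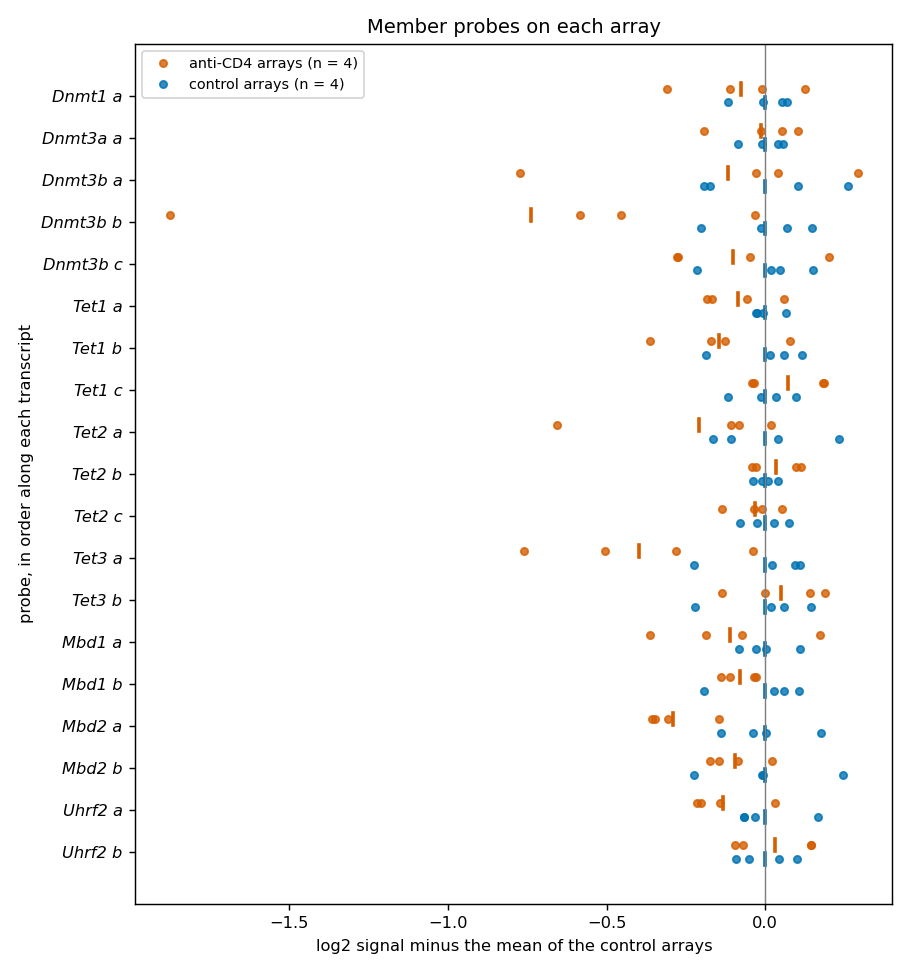
Log2 signal of the 19 tested member probes on each array, minus the mean of the control arrays of that probe, with 1 row per probe. Orange points are the 4 anti-CD4 arrays, blue points the 4 control arrays and short bars the group means. The groups are apart only for Mbd2 a, and the anti-CD4 array farthest to the left is that of Dnmt3b b, with a level of -5.21 before the control mean is taken off.

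The 8 arrays lay on 1 slide, all anti-CD4 arrays in its upper row and all control arrays in its lower row, so an effect of the row and one of the antibody cannot be told apart. The share of probes well above background ran from 51.1% to 54.3%, and 0 probes were saturated. All 8 genes of a list of hippocampal neuron markers were measured by 10 probes, 6 of them lower and 4 higher, with a median of -0.0154. At an unadjusted p under 0.05 (limma) 2 were lower, Neurod6 at -0.50 and Zbtb20 at -0.47, and 1 was higher, Syt1 at 0.18. Of 7 T-lymphocyte genes found on the array, 3 passed the filter, and Cd4 differed by 0.02 (adjusted p = 0.948, limma). In bulk tissue, fewer cells of a type and less RNA per cell cannot be told apart. The mean of the choroid plexus list spanned -2.81 to 2.10 over the anti-CD4 arrays and -3.50 to 1.57 over the control arrays, and its gene Ttr differed by 1.59 with an interval of -3.62 to 6.80. Proliferating-cell markers averaged -2.81 to -2.52 and -2.46 to -1.98 in the same order, with 4 of 6 tested probes lower at an unadjusted p under 0.05 and Top2a and Cdk1 too dim to test. For 2 red blood cell probes the means were 1.33 to 1.61 and 0.67 to 1.04. Dentate granule markers averaged -1.04 to -0.41 in the anti-CD4 group and -0.58 to -0.13 in the controls. Endothelial markers had 6 of 7 probes higher, 3 of them at an unadjusted p under 0.05, and oligodendrocyte markers 8 of 12 lower, 3 of them at that level. At that level 6.99% of all tested probes were lower and 5.98% higher. The part of these cell types in the results on the members was not tested.

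Among the writers, Dnmt1, the maintenance methyltransferase, is read by 1 probe at chr9:20711973-20712341 (mm9, minus strand), whose 60 bases cross an exon junction with 309 genomic bases between the parts. The probe starts at base 4984 of the transcript, and the files list 4 RefSeq transcripts under it, so it cannot separate the gene's transcription starts. Its sequence is shown with the promoter windows of its most upstream and its most downstream start in RefSeq (GRCm38.p6, 250 bases before to 50 after the start, minus strand), with capitals marking each CpG in all 3 sequences, because these starts differ in the dinucleotide that the protein methylates.
Dnmt1 probe a: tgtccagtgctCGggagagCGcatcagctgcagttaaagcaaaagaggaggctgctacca
Dnmt1 upstream start, chr9:20959839-20960138: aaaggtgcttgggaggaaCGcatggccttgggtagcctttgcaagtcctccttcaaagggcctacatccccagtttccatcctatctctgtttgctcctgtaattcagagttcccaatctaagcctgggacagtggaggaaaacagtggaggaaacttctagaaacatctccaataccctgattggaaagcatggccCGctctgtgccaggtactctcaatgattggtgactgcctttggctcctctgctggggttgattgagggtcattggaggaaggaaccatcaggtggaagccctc
Dnmt1 downstream start, chr9:20952574-20952873: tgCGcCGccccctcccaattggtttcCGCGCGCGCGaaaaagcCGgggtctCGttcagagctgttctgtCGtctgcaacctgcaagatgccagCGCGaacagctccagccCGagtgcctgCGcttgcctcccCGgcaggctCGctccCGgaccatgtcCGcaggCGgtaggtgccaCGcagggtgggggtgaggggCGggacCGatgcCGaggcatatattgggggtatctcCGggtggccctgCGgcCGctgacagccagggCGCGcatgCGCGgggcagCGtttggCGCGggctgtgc
The upstream window holds 2 CpGs and the downstream one 33, a number reached by 8.56% of 32851 promoter windows of that length. An oocyte-specific first exon is known for Dnmt1, and which start was used in these samples was not measured.

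Dnmt1 read -0.62, -0.18, -0.42 and -0.32 on anti-CD4 arrays 1 to 4, against -0.31, -0.42, -0.25 and -0.24 on control arrays 1 to 4. The controls lay within the range of the anti-CD4 arrays. The difference was -0.08, with a 95% interval of -0.30 to 0.15 (adjusted p = 0.770, limma), and was 0.0015 without anti-CD4 replicate 1. With the mean of the dentate granule markers as a covariate it was -0.195 (adjusted p = 0.490, limma).

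Dnmt3a, the de novo enzyme that predominates in adult neurons, is read by 1 probe at chr12:3914320-3914379 (mm9), at base 9611 of its transcript. RefSeq lists 3 starts for the gene, with 46, 47 and 18 CpGs in their windows, and the probe lies downstream of them all and is listed under 3 RefSeq transcripts. It read 2.79, 2.72, 2.84 and 2.54 on the anti-CD4 arrays and 2.73, 2.65, 2.79 and 2.78 on the controls. The groups overlapped almost fully. Its difference of -0.01 had an interval of -0.19 to 0.17, which leaves room for a fold of 0.874 to 1.12 (adjusted p = 0.956, limma).

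Dnmt3b, the other de novo enzyme and mainly an enzyme of the embryo, has 3 probes within chr2:153512098-153513462 (mm9), 893 and 412 bases apart along the transcript and in the genome. All were dim. Probe c, the only one above background on all 8 arrays, read -2.15 ± 0.23 and -2.05 ± 0.15 in anti-CD4 and control arrays (SD, n = 4 each), a difference of -0.10 with an interval of -0.39 to 0.19. Probe a differed by -0.12 (-0.62 to 0.38). Probe b read -3.79, -3.36, -3.91 and -5.21 on the anti-CD4 arrays, against -3.26, -3.18, -3.53 and -3.34 on the controls. The lowest of these, anti-CD4 replicate 4, had a processed signal of 19.8 and was not well above background. The difference of probe b, -0.74 (-1.52 to 0.04, adjusted p = 0.409, limma), was -0.36 without that array, -0.12 with normexp background correction and -0.04 in the authors' table.

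**Figure D2:**
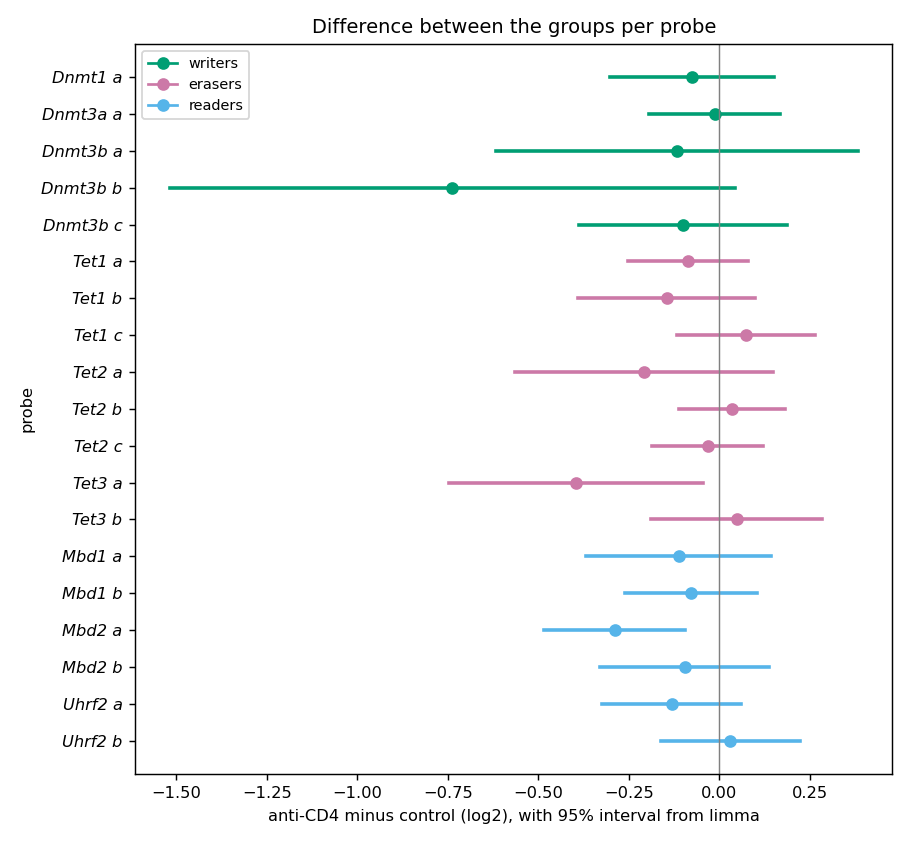
Difference between the group means of each tested member probe (anti-CD4 minus control, log2), with the 95% interval from limma as a line, coloured by role. Intervals of 17 probes include 0, those of Tet3 a and Mbd2 a do not before adjustment, and the widest belongs to Dnmt3b b at -1.52 to 0.04.

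The erasers were represented by 8 tested probes, with 5 differences below 0 and 3 above. Tet1 has 3 probes on chr10 between 62274448 and 62301915 (mm9). Probes b and c lie 1594 bases apart on the same transcript, and probe a lies 25814 bases upstream of b in the genome. Probe a read -2.13, -2.25, -2.36 and -2.37 on the anti-CD4 arrays and -2.22, -2.20, -2.22 and -2.13 on the controls. Probe b gave -2.27, -2.04, -1.83 and -2.08 against -1.80, -1.85, -2.10 and -1.90. Probe c gave -0.25, -0.48, -0.25 and -0.47 against -0.45, -0.40, -0.55 and -0.34. For each of the 3 probes the groups overlapped. Differences were -0.09 for a, -0.15 for b and 0.07 for c, each with an interval that includes 0, and with adjusted p-values of 0.626, 0.581 and 0.738 (limma). Probe a differed by -0.1338 with normexp background correction. In the authors' table it differed by -0.1738 (unadjusted p = 0.03026, adjusted p = 0.2585, limma). In the same order b differed by -0.0604 and -0.0496 and c by 0.0389 and 0.0365.

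Tet2, which has no DNA-binding CXXC domain of its own, has probes b and c 154 bases apart (chr3:133126751-133126964, mm9, minus strand) and a probe a designed on a cDNA clone that lies 49516 bases upstream. The start of the gene is shown because its promoter window is the richest in CpG among the 7 member genes whose windows were taken. Windows of Mbd1 and Mbd2 are not reported here.
Tet2 start, chr3:133544341-133544640 (GRCm38.p6, minus strand, CpG in capitals): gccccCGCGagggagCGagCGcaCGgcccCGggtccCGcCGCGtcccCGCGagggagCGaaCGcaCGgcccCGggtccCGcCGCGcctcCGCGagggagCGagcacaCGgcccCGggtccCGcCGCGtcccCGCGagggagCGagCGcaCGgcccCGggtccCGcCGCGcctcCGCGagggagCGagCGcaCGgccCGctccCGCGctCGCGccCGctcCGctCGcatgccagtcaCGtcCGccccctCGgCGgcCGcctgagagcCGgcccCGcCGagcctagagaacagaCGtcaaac
It holds 57 CpGs, and 0.152% of all windows hold as many or more. The member windows otherwise range from 2 CpGs at the upstream Dnmt1 start to 47 at a Dnmt3a start, over 11 starts of 7 genes, and the median of all windows is 7. Methylation of these windows was not measured. Tet2 b read -0.43, -0.29, -0.28 and -0.42 on the anti-CD4 arrays, against -0.40, -0.38, -0.43 and -0.35 on the controls. Tet2 c read 1.54, 1.48, 1.45 and 1.35, against 1.46, 1.41, 1.57 and 1.52. These probes had the smallest within-group spread of the members, 0.06 and 0.07 on the log2 scale against a median of 0.14 over all tested probes. Their differences were 0.03 (-0.11 to 0.18) and -0.03 (-0.19 to 0.12), the narrowest intervals among the members. Tet2 a was dim, at -3.98, -3.31, -3.43 and -3.41 on the anti-CD4 arrays against -3.09, -3.29, -3.44 and -3.49 on the controls, with anti-CD4 replicate 1 the lowest. It differed by -0.21 (-0.56 to 0.15), and by -0.0575 without that array.

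Tet3, the TET gene known for its expression in neurons, has 3 probes on chr6 (mm9, minus strand), at bases 2202, 3494 and 4483 of 1 transcript. They are shown because, in the processed signal, a was lower before adjustment, b was not, and c was too dim to test. None holds a CpG, so no letter is in capitals.
Tet3 a, chr6:83352743-83352802: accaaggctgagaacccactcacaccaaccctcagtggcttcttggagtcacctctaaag
Tet3 b, chr6:83319720-83319779: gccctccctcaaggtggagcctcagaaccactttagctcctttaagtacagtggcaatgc
Tet3 c, chr6:83318731-83318790: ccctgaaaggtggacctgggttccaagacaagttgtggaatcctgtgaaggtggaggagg
Probe a read -4.01, -3.79, -4.27 and -3.55 on the anti-CD4 arrays and -3.49, -3.73, -3.41 and -3.40 on the controls. The control range held anti-CD4 replicate 4, the other anti-CD4 arrays lay below it, and replicate 3 was not well above background. Its difference of -0.40 had an interval of -0.75 to -0.05 (adjusted p = 0.340, limma). It was 0.01 with normexp background correction and 0.02 in the authors' table, which both can shrink log2 differences of dim probes. Over 18 alternative settings it lay between -0.56 and 0.02, with an adjusted p of 0.272 to 0.952 (limma). In 10 of these the unadjusted p was under 0.05. Leaving out 1 array at a time gave -0.52 to -0.28. Probe b, above background on all arrays, gave -1.77, -1.63, -1.90 and -1.58 against -1.62, -1.99, -1.71 and -1.75, a difference of 0.05 (-0.19 to 0.28). Probe c was well above background on 1 anti-CD4 and 1 control array and was not tested.

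Mbd1 and Mbd2, the readers with a methyl-CpG binding domain, each have 2 probes on chromosome 18. Mbd2, which recruits the NuRD repressor complex, gave the smallest p-value of the members, at rank 1005 of 29406. Probe a lies at chr18:70740406-70740465 (mm9), base 775 of the transcript, and probe b 639 bases further along it, at chr18:70785350-70785409, 44944 bases away in the genome. Probe a read 0.22, 0.17, 0.37 and 0.16 on the anti-CD4 arrays and 0.48, 0.70, 0.38 and 0.52 on the controls. All anti-CD4 values lay below all control values, narrowly so between anti-CD4 replicate 3 at 0.3746 and control replicate 3 at 0.3831. The difference was -0.29 ± 0.086 (SE), with an interval of -0.48 to -0.09, or a fold of 0.818 (adjusted p = 0.255, limma). It was -0.29 with normexp background correction and -0.27 in the authors' table, and lay between -0.34 and -0.23 in 19 alternative settings, with an adjusted p of 0.139 to 0.598. Probe b read 1.79, 1.82, 1.98 and 1.88, against 1.96, 2.21, 1.74 and 1.95. Its groups overlapped, and its difference was -0.10 (-0.33 to 0.14, adjusted p = 0.711, limma). Leaving out control replicate 2 gave -0.0149 for probe b, and leaving out control replicate 3 gave -0.1715.

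Mbd1, whose product also binds unmethylated CpG through CXXC domains in some isoforms, differed by -0.11 at probe a and -0.08 at probe b (adjusted p = 0.691 and 0.697, limma). Probe b, at chr18:74442279-74442338, read 0.97, 0.89, 0.98 and 0.87 on the anti-CD4 arrays, against 0.81, 1.06, 1.11 and 1.03 on the controls. Control replicate 1 was the lowest of all 8 arrays and the other controls were the 3 highest.

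Uhrf2 has probe a at base 696 (chr19:30130768-30130827, mm9) and probe b at base 3281 (chr19:30167958-30168017). Probe a gave -0.63, -0.70, -0.45 and -0.68 on the anti-CD4 arrays and -0.51, -0.32, -0.55 and -0.55 on the controls, with anti-CD4 replicate 3 inside the control range. Its difference was -0.13 (-0.32 to 0.06, adjusted p = 0.528, limma). Probe b gave 2.93, 2.72, 2.93 and 2.69 against 2.69, 2.74, 2.88 and 2.83, with no separation. It differed by 0.03 (-0.16 to 0.22).

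The differences of Dnmt3b b and Tet3 a, both dim, were larger than that of Mbd2 a, and those of the other dim probes were smaller. The 5 probes with a mean level below -3, a limit chosen after the values were seen, differed by -0.74 to -0.11 with standard errors of 0.11 to 0.34. The other 14 differed by -0.29 to 0.07 with standard errors of 0.06 to 0.13. With normexp background correction the differences of these 5 were -0.12 to 0.01, and in the authors' table -0.12 to 0.02. Normexp was run with an added offset of 50, and the authors' table follows the ranks of the unsubtracted signal. Both can shrink log2 differences of dim probes more than those of bright ones. Those of Dnmt3b b, Tet2 a and Tet3 a came closer to 0 in both settings. The differences of Dnmt3b a and Mbd1 a changed little. In processed signal, normexp and authors' table they were -0.1173, -0.1138 and -0.1217 for Dnmt3b a and -0.1126, -0.1154 and -0.1222 for Mbd1 a. These values therefore cannot show whether the differences of the 5 dim probes are real. For 15 of the 19 probes the interval lay within 0.5 on either side of 0, and the exceptions were Dnmt3b a, Dnmt3b b, Tet2 a and Tet3 a. Those 4 are among the 5 dim probes.

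**Figure D3:**
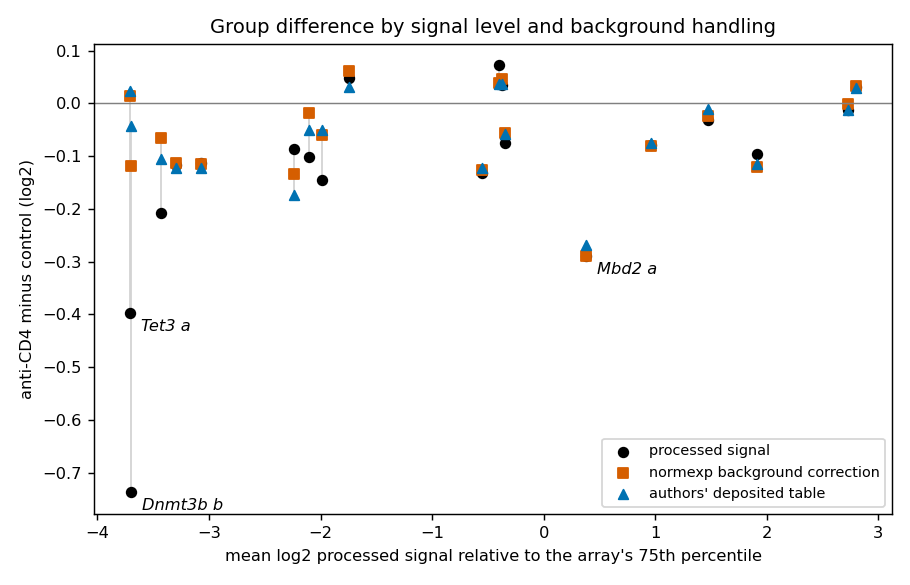
Difference between the groups (anti-CD4 minus control, log2) of each tested member probe against its mean log2 processed signal relative to the array's 75th percentile. Circles are the processed signal, squares normexp background correction and triangles the authors' table, joined by a grey line per probe. In that order Dnmt3b b lies at -0.74, -0.12 and -0.04 and Tet3 a at -0.40, 0.01 and 0.02, while the symbols of Mbd2 a lie within -0.29 to -0.27. Normexp was run with an offset of 50, and the authors' table follows unsubtracted signal. Both can shrink differences of dim probes more than those of bright ones. Those of the dim probes Dnmt3b a and Mbd1 a changed little.

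Probes of 1 gene did not always give the same difference, so the log2 difference between the probes of a pair was taken within each array and compared between the groups, for 13 pairs of 7 genes. The exact two-sided permutation test over 70 assignments cannot go below 0.0286. After adjustment over the 13 pairs any could pass only if 8 reached that value, and 3 did, so the adjusted values say little. Mbd2 a minus Mbd2 b was -1.64 ± 0.06 in the anti-CD4 group and -1.44 ± 0.07 in the controls (SD, n = 4 each), a difference of -0.19 (exact p = 0.0286, adjusted p = 0.124), and of -0.17 with normexp and -0.15 in the authors' table (exact p = 0.0571 and 0.0857). Tet3 a minus Tet3 b was -2.18 ± 0.17 and -1.74 ± 0.09 in the same order, a difference of -0.44 with the same exact p and adjusted p. It was -0.0476 with normexp and -0.0059 in the authors' table, which both can shrink differences of a dim probe such as Tet3 a. Tet1 b minus Tet1 c was -1.70 ± 0.22 and -1.48 ± 0.10, a difference of -0.22 (exact p = 0.0286, adjusted p = 0.124). It was -0.0993 with normexp, -0.086 in the authors' table and -0.1086 without anti-CD4 replicate 1 (exact p = 0.314, 0.314 and 0.143). In these 3 of 13 pairs the groups did not overlap, against 10.0% of 12733 pairs of tested probes that share a gene name. The other 10 pairs had exact p-values of 0.0857 to 0.971.

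**Figure D4:**
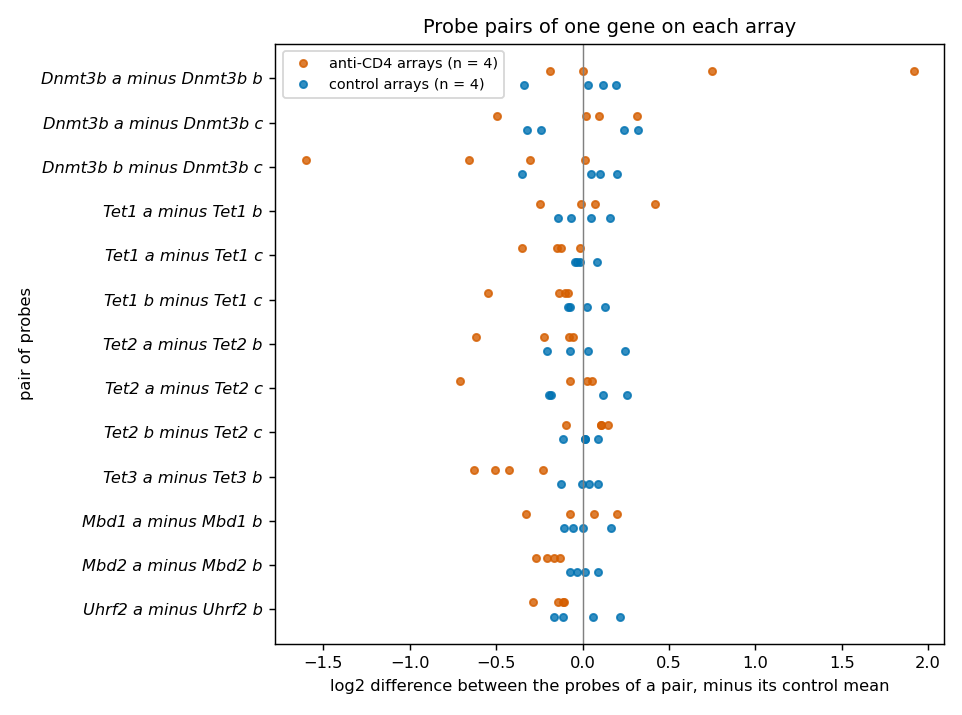
Log2 difference between 2 probes of a gene within each array, minus the mean of that difference over the control arrays, for 13 pairs. Orange points are anti-CD4 arrays and blue points control arrays, 4 each. The groups are apart for Tet1 b minus c, Tet3 a minus b and Mbd2 a minus b.

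Related genes were taken from 7 lists, and none of their tested probes passed the adjusted threshold (limma), as none did among all probes. The counts at an unadjusted p under 0.05 given for these lists stand beside 6.99% lower and 5.98% higher among all tested probes. Of 21 probes of 14 other genes of CpG-binding or MBD-family proteins, 3 were lower and 0 higher at an unadjusted p under 0.05. The median was -0.03. The 3 lower probes were those of Cxxc1, which binds unmethylated CpG and guides histone H3K4 methylation, at -0.27 ± 0.065 (SE), the methyl-CpG binding zinc finger gene Zbtb4 at -0.26 and the H3K36 demethylase gene Kdm2a at -0.22, with adjusted p-values of 0.226 to 0.271. Second probes of Zbtb4 and Kdm2a differed by -0.01 and -0.03, and Cxxc4 by 0.20 (adjusted p = 0.406). Uhrf1, the hemimethyl-CpG reader that brings DNMT1 to new DNA, differed by -0.09 (adjusted p = 0.707) and the glycosylase gene Mbd4 by -0.20 (adjusted p = 0.556).

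In the list of demethylation and base excision repair, 1 of 18 probes was higher and 2 were lower at an unadjusted p under 0.05, with a median of -0.08. Tdg, the glycosylase that removes oxidised 5-methylcytosine, had probes at 0.23, -0.18 and -0.07, the first with an adjusted p of 0.325 (limma). Smug1, a uracil glycosylase, differed by -0.15 and DNA polymerase beta, Polb, by -0.22. Gadd45b, an activity-induced gene linked to demethylation in the dentate gyrus, differed by 0.13 (adjusted p = 0.456, limma). Neil3 was too dim to test.

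Partners in maintenance and repression gave 8 lower and 2 higher of 41 probes at an unadjusted p under 0.05, and a median of -0.02. The list was chosen with results known, so its count is no independent evidence of a direction. Atrx, a chromatin remodeller, had probes at -0.51 ± 0.099 and -0.28 ± 0.073 (SE, adjusted p = 0.173 and 0.245, limma) and another at -0.12. Usp7, a deubiquitinase that binds DNMT1 and UHRF1, differed by -0.27 at one probe and 0.05 at the other. The deacetylase gene Hdac1 and the NuRD subunit gene Mta2 each had a probe at -0.20, and other Hdac1 probes differed by -0.16 and -0.0047. Hells was too dim to test.

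Genes of methyl donor supply gave 0 lower and 2 higher of 18 probes at an unadjusted p under 0.05, with a median of -0.0099. These were the S-adenosylmethionine synthetase genes Mat2a, at 0.22, and Mat2b, at 0.18 (adjusted p = 0.319 and 0.356, limma), and a second Mat2a probe differed by 0.02. Ahcy had probes at -0.16, 0.23 and 0.04. Among 14 probes for TET cofactors, 1 had an unadjusted p under 0.05, that of fumarase (Fh1) at 0.16, with a median of 0.03 over the list, while a second Fh1 probe differed by 0.10. Ogt had probes at -0.18 and -0.10. Of 12 germline genes known to be held silent by promoter methylation in somatic tissue, 6 had no tested probe. In the rest, 4 of 7 probes were lower and 3 higher, with a median of -0.33. At an unadjusted p under 0.05 there were 3 lower and 1 higher, namely Dazl at -0.44, Tuba3a at -0.54, Ddx4 at -0.52 and Sycp3 at 0.62, with adjusted p-values of 0.228 to 0.375 (limma). Some of these probes were dim. In anti-CD4 and control arrays Sycp3 averaged -3.70 and -4.32, Syce1 -3.71 and -3.86 and Dazl -3.12 and -2.68. Others were not dim. In the same order Taf7l averaged 1.61 and 1.57, and the Tuba3a probes -0.48 and 0.06 and -0.08 and 0.24. Whether the genes of this list are silent in these samples was not tested. Tuba3a has near-identical copies, so its probes, the second at -0.33, may read another tubulin gene.

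The last list held neuronal genes linked to memory or activity, with 2 lower and 1 higher of 13 probes at an unadjusted p under 0.05 and a median of -0.06. The 3 probes of Ppp1cc, a catalytic subunit of protein phosphatase 1, differed by -0.34, -0.19 and 0.0092, and Reln, the gene of the matrix protein reelin, differed by 0.42 (adjusted p = 0.236, 0.284, 0.976 and 0.331, limma). Bdnf, the neurotrophin gene, differed by -0.30 with an interval of -0.73 to 0.12, and Arc by -0.26.

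**Figure D5:**
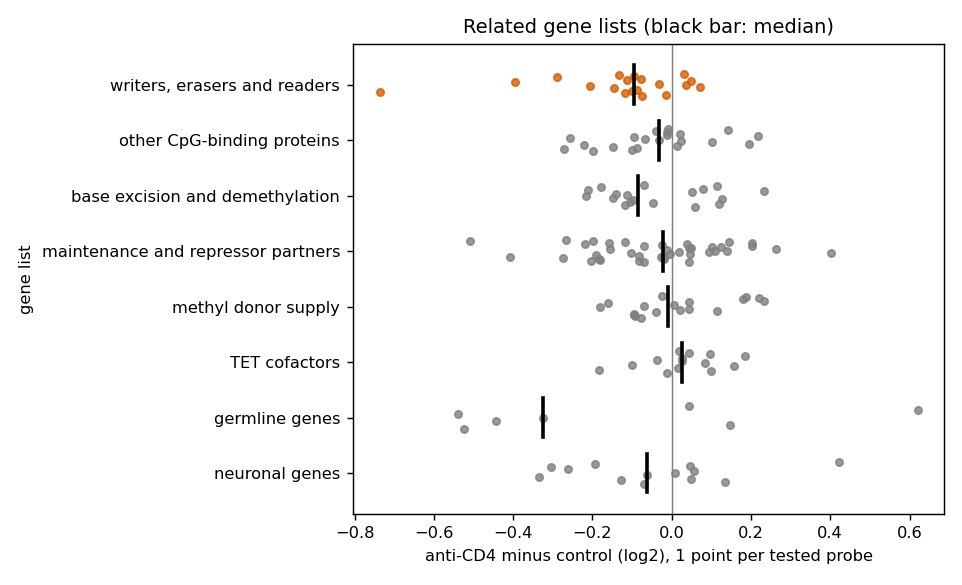
Difference between the groups (anti-CD4 minus control, log2) of each tested probe in the 9 genes of writers, erasers and readers (orange) and in 7 related lists (grey), with a black bar at the median. Medians lie between -0.33 for the germline genes and 0.03 for the TET cofactors, and that of the writers, erasers and readers is -0.10.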

How the data were processed

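Hippocampal RNA of 8 samples was measured on Agilent design 028005. Per the file headers, Feature Extraction 10.7.3.1 produced the deposited intensity of each spot, with background subtraction and spatial detrending. The authors' deposited table holds log2 values; each column ranked probes as the unsubtracted median signal of its array did (rank correlation 0.999998 or more), with a median of 7.83. The submitters' processing notes name limma for this study, and no further step is given in them.

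Control spots were left out, spots of a probe were averaged without outlier-flagged ones, and log2 processed signals were taken minus the 75th percentile of each array. Probes well above background on at least 4 arrays were fitted together in limma (version 3.58.1, under R 4.3.3, functions lmFit and eBayes), with two-sided p-values adjusted by Benjamini-Hochberg over 29406 probes; intervals are 95% intervals of that fit, with 4 samples a group. The number of arrays limits the precision. Coordinates are those of the files (mm9); promoter sequences are from RefSeq on GRCm38.p6. Groups and replicate numbers come from the sample titles.

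The members and gene lists were chosen with earlier results of these data known. All member probes are named. Each related list is described by its counts and median and by up to 4 genes of smallest p, of which some are not reported here. Cd4, Ttr, Uhrf1, Mbd4, Gadd45b, Tdg and Bdnf are always given where tested. Alternatives covered normalization, background correction, the dim-probe filter, the unit of the test, the replicate block, empirical Bayes options, array weights, covariates, each array left out and a threshold of 0.1. Normexp used an offset of 50.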

Additional observations from a re-analysis of the deposited data

Results flagged for a closer look

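Values of the member probes were examined in 38 groups of 4 arrays for a single array apart from the rest, and chance flags about 1 in 20 groups. This held in 1 group. Uhrf2 a read -0.318 on control replicate 2, where the other controls lay between -0.5494 and -0.5143, and the gap took up 0.848 of the range of the group. Without any 1 of the 8 arrays, the difference of this probe lay between -0.19 and -0.08.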

How the results depend on the processing

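Of 376 values of member probes under alternatives, 358 kept their direction and 18 changed sign. These include means over all probes of a gene, set against its brightest probe alone. Of 130 values of probe pairs, 11 changed sign. No member probe passed the adjusted threshold in any setting, so none changed its side of it. The cause of each change below was not tested. Tet3 a turned to 0.0133 with normexp and 0.0243 with the authors' table. The mean of all probes of a gene was -0.0537 for Tet1, -0.1743 for Tet3 and -0.051 for Uhrf2, where the brightest probe had been above 0. Uhrf2 b was -0.0269 with array weights. With the mean of dentate markers as a covariate Dnmt3a was 0.0076 and Tet3 b -0.0696. Leaving out 1 array at a time gave -0.1435 to 0.0015 for Dnmt1, -0.052 to 0.0466 for Dnmt3a, -0.2538 to 0.1015 for Dnmt3b a, -0.0605 to 0.0023 for Tet2 c, -0.0252 to 0.1094 for Tet3 b and -0.0077 to 0.0723 for Uhrf2 b. Among pairs, Tet1 a minus b had -0.0734 (normexp), -0.1243 (authors' table) and -0.062 to 0.1604 without 1 array. Dnmt3b a minus b was -0.0779 and Dnmt3b b minus c 0.0063 with the authors' table. Without 1 array, Dnmt3b a minus c was -0.1273 to 0.1435, Tet2 a minus c -0.2513 to 0.003 and Mbd1 a minus b -0.112 to 0.0637. 

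The member probes at an unadjusted p under 0.05 numbered 1 of 19 with normexp, against 4301 of all 29406 probes. With probes above background on all arrays they numbered 1 of 16, against 3705 of 26802. They numbered 0 of 9 with the brightest probe of a gene, where Mbd2 is read by probe b, against 2673 of 20894. With the mean of a gene's probes the count was 0 of 9, against 2549 of 20894. Without 1 array it was 1 to 3 of 19, against 2720 to 4613 of 29406. With those 2 ways of taking 1 value per gene, 0 member genes had groups without overlap, and 6 and 9 of 9 lay below 0. The median was -0.0323 with the brightest probe, against 0.0126 over all rows. Shares of all rows below 0 or without overlap were not counted in these settings. Without 1 array, 1 to 2 member probes had groups without overlap, which fewer arrays make likelier by chance. Over all probes, the count past the adjusted threshold was 2 with the authors' table, 2 with trended robust empirical Bayes, 1 with Ttr signal as a covariate and 0 to 2 without 1 array, and 0 at a threshold of 0.1. Probes lower at an unadjusted p under 0.05 numbered 1291 with the brightest probe, 1302 with the mean of probes (both over fewer rows, 20894) and 1360 with the dentate covariate. Ttr signal itself ran from 1675 to 274100 over the anti-CD4 arrays and from 537.7 to 264000 over the control arrays.

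Replicate numbers equal slide columns. Deviations from the group mean correlated at -0.44, -0.28, -0.31 and 0.28 between same-numbered samples, against -0.42 to 0.45 between other numbers. For 1 replicate the best match was its own number. Deviations of arrays from their own group mean are not independent, so these correlations cannot show whether samples were paired. With the replicate block 3 member probes had an unadjusted p under 0.05 and 2763 probes did in all. No probe was saturated, and signal near background limits Dnmt3b a and b, Tet2 a and Tet3 a and c.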
